A study of Mus musculus with 46 samples.

Results

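The 21 fragments described here are candidate cis-regulatory elements (cCREs) that lie over the Gli2 gene in the Tfcp2l1 locus of the mouse. They were chosen by position: cCREs of the Tfcp2l1 locus, whose names start with E, with a start from 118834000 to 119053999 on chromosome 1 of mm10, leaving out 4 named fragments, of which 2 lie within these bounds. They make up 21 of the 232 cCREs of that locus and of the 423 cCREs in the series. The rule uses names and positions, and no measured activity.

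The study cloned cCREs and promoters of the Klf2, Nanog and Tfcp2l1 loci singly and in pairs upstream of a barcoded reporter, a massively parallel reporter assay. The Tfcp2l1 plasmids were delivered by transient nucleofection to the established mouse embryonic stem cell line E14TG2a, kept in 2i and LIF medium, which holds such cells in a naive pluripotent state, and RNA was harvested after 24 h. The group used here is the 3 biological replicates of this mix. No group with another genotype or treatment was compared: all comparisons are between constructs measured in the same 3 transfections.

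Gli2 encodes a zinc finger transcription factor of Hedgehog signalling. With the pathway off, the protein is held back by Sufu and degraded or processed, and with Smoothened active it enters the nucleus and switches on targets such as Gli1 and Ptch1. The gene is best known from the patterning of the neural tube, skeleton and lung, settings other than the pluripotent cells assayed here. A cCRE is a stretch of DNA picked for chromatin features of regulatory elements; an enhancer in the strict sense raises the output of a promoter, a silencer lowers it, and many cCREs do neither in a given cell. A plasmid assay reads the sequence outside its own chromatin and away from the gene it lies in.

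All 21 fragments lay within the RefSeq bounds of Gli2, 118834061 to 119054405 on chromosome 1, a gene of 220345 bp on the minus strand. Each spanned 450 bp from start to end. The member farthest from the 5′ end was E082, from 118839632 to 118840082, 214.3 kb from it, and the nearest was E106, from 119048969 to 119049419, 5 kb from it. E091, from 118947135 to 118947585, also overlapped the RefSeq long noncoding RNA gene Gm51642. E096, E097 and E098 formed a chain: E096 and E097 shared 41 bp, and E097 and E098 shared 134 bp, so their values are not those of separate sequences. Whether each fragment is exonic or intronic was not analysed here.

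The library also held the promoter fragment P013, from 119053544 to 119053994, 4.125 kb from the end of E106. It contains the Gli2 start used in the RefSeq promoter table, 119053619, which lies inside the gene; the outer 5′ bound of the gene, 119054405, from which the distances above were measured, lies outside P013. P013 is the promoter fragment of the gene these cCREs lie in, so the 250 bases upstream of the start at 119053619 (GRCm38.p6, chr1:119053620-119053869, minus strand, all within P013) are given here 5′ to 3′, with the GC box GGGCGG, the core site of Sp/KLF zinc finger factors, in capitals.
Gli2 upstream: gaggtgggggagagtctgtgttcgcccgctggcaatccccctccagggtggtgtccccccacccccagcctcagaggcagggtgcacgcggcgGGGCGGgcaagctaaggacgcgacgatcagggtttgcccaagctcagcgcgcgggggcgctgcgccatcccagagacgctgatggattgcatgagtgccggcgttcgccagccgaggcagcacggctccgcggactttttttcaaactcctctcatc
The stretch was 67.2% G and C and held 22 CpG dinucleotides, against a median of 6 over the same window of 32851 RefSeq promoters. GGGCGG, searched on both strands as GGGCGG or CCGCCC, occurred once in it; 32.7% of those promoters held at least 1 copy in this window. The sequences of the cCREs themselves were not used here.

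Activity is the authors' ratio of barcode counts in cDNA to those in plasmid DNA (pDNA), on a linear scale, given for each construct in each replicate, and is reported as log2 unless stated. In a construct, the fragment named first stood upstream of the second, and each could be in the + or - orientation. What + and - refer to is not given in the sources used here: of 8 promoter fragments that hold a RefSeq start, only 2 were more active in the orientation that matches the gene's genomic strand, so + is not read as the genomic plus strand. The read depth behind each ratio is unknown. Errors over n = 3 cover the transfections of 1 plasmid pool and leave out differences between plasmids. Across constructs that hold a member, log2 activities correlated between replicates at Pearson r of 0.86 to 0.87 (n = 6588 constructs), against 0.90 to 0.91 over all 50533 constructs. A value of 0 in at least 1 replicate occurred in 13.6% of the 426 constructs of a member before a promoter, against 9.54% of all such constructs, and in 15.8% of the 3535 with a member before another cCRE, against 9.77%. Such constructs were left out of the tests, and replicate 1 held most of the zeros.

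Alone upstream of the reporter, the cCREs over Gli2 ranged from among the most active of the locus to among the least. The 35 measured oriented fragments (20 members, 15 of them in both orientations; E083 had no such value) had a median log2 activity of -3.85 ± 0.16 (SD, n = 3), against -3.39 ± 0.20 (SD, n = 3) for all cCREs of the locus. Against that overall median, 11 of the 35 were higher and 16 lower at an adjusted p of 0.05 (limma with Benjamini-Hochberg adjustment over 419 oriented cCREs); over all oriented cCREs of the locus, 40.3% were higher and 35.3% lower. The member median difference was -0.74 on the log2 scale.

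E084, from 118873573 to 118874023 and 180.4 kb from the 5′ end of the gene, stood far above the other members. In the + orientation its activity was 5.23, 4.98 and 4.19 in the 3 replicates, the linear ratio, a log2 mean of 2.26 ± 0.17 (SD, n = 3), rank 6 of 419 oriented cCREs. In the - orientation the activity was 3.93, 3.38 and 3.05, a log2 mean of 1.78 ± 0.18 (SD, n = 3), rank 9. The replicates of the 2 orientations of this fragment thus lay close to each other, with + above - in each replicate and both lay far above the median cCRE, 50.2-fold in + (limma, adjusted p = 0.00011) and 36.1-fold in - (adjusted p = 0.00014). E082, measured in + only, had an activity of 0.995, 0.872 and 0.839, which was 9.45-fold the median cCRE (limma, adjusted p = 0.00032). E106, nearest to the gene's start and measured in + only, had an activity of 0.646, 0.439 and 0.876, which was 6.61-fold the median cCRE (limma, adjusted p = 0.0012). E082 and E084 lay toward the 3′ end of the gene and E106 near its 5′ end. They were the highest by the mean over measured orientations, and single orientations of members between them came near E106. E094-, E097- and E088- had 6.29-fold, 5.24-fold and 4.75-fold the median cCRE. No replicate of E082 or E106 reached the lowest of E084.

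The lowest members by the mean over their measured orientations were E093 and E105. E093 in the - orientation had an activity of 0.0144, 0.0317 and 0.0236, a log2 mean of -5.50 ± 0.57 (SD, n = 3), rank 407 of 419. E105 in + had 0.0118, 0.033 and 0.0251, rank 408, and in - 0.0793, 0.0129 and 0.0359, rank 380. The + value of E105 was lower than the median cCRE (limma, adjusted p = 0.0033) and its - value did not pass the test (adjusted p = 0.082). All 3 replicates in - lay below the median cCRE of the same replicate, and without replicate 1 the adjusted p was 0.01. Single orientations of other members ranked lower: E085+ had a log2 mean of -6.02 ± 2.30 (SD, n = 3), rank 417, and E087- had -5.62 ± 0.63 (SD, n = 3), rank 411. The data also hold a construct named eempty, whose nature is not given in the sources used here. Its activity was 0.161, 0.186 and 0.190, above the median cCRE alone (0.0812, 0.101 and 0.105). With eempty in both places of a pair, the log2 activity was -4.44, -3.93 and -3.94. These values lay below the median cCRE alone, whose log2 activity was -3.62, -3.31 and -3.25.

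Most members measured both ways differed in activity alone between orientations. In 9 of 15 (60%) the 3 replicates of one orientation all lay above those of the other, against 59.5% of 195 cCREs of the locus, so this share was that of the locus. The widest separation was in E094, with 0.534, 0.563 and 0.713 in - and 0.0133, 0.0784 and 0.0431 in +, a log2 difference of + minus - of -4.07 ± 1.24 (SD, n = 3). E087 went the other way, with 0.205, 0.249 and 0.226 in + and 0.013, 0.0205 and 0.0312 in -, a log2 difference of 3.48 ± 0.57 (SD, n = 3). E102 and E097 were more active in -, with log2 differences of -2.91 ± 0.71 and -2.89 ± 0.19 (SD, n = 3). E096 and E098, which share sequence with E097, had log2 differences of -0.19 ± 0.14 and -0.29 ± 0.71 (SD, n = 3), and their orientations overlapped.

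Placed before a promoter, the cCREs over Gli2 more often went with a lower than with a higher output. Of 360 pairs of a member and an oriented promoter with a nonzero value in each replicate, 34 were higher than the same promoter alone and 110 lower (limma, adjusted p under 0.05); over all 4945 such pairs of the locus 23.8% were higher and 19.7% lower, where the members had 9.44% and 30.6%. The median log2 difference was -0.68 over the member pairs and -0.20 over all. Against the median construct with the same promoter in place of the promoter alone, 36 of 368 were higher and 73 lower, against 25.9% and 9.99% over all 5054 such pairs. Without replicate 2 the counts against the promoter alone fell to 20 higher and 42 lower, and without replicate 3 to 22 and 42.

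A boost index divides the activity of a construct by the median of all constructs that hold that oriented promoter, within a replicate and on the log2 scale, and it was averaged over promoters for the 12 members with at least 3 promoter fragments. None of the 12 was higher than 0 by limma, and 9 were lower at an adjusted p of 0.05; over all 169 cCREs 32% were higher and 34.9% lower. At an unadjusted p under 0.05, 1 member was higher and 9 lower. The median of the 12 was -0.48, against -0.05 over the 169. Of the 3 not called, E088 had the highest index, 0.29, 0.16 and 0.37 in the replicates (mean 0.27 ± 0.11, SD, n = 3; limma adjusted p = 0.062). E097 had -0.01, 0.16 and -0.25 (mean -0.03; adjusted p = 0.83), which straddles 0, and E096 had -0.29, -0.19 and -0.08 (mean -0.19; adjusted p = 0.17). Other settings called each of them. E088 was higher when centred on the median cCRE (0.32, adjusted p = 0.034). E097 was lower with zeros kept (-0.27, adjusted p = 0.024), and E096 was lower among activities of at least 0.02 (-0.35, adjusted p = 0.015). Among those activities the index of E088 was 0.0067 (limma adjusted p = 0.96). With the median over promoters the index of E088 was 0.15 (limma adjusted p = 0.25).

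The fourth highest was E086, with a boost index of -0.50, -0.24 and -0.24 (mean -0.33 ± 0.15, SD, n = 3; limma adjusted p = 0.035) over 47 constructs. This call was lost when centred on the median cCRE (adjusted p = 0.068), among activities of at least 0.02 (mean -0.21, adjusted p = 0.12) and without any 1 of the replicates (adjusted p from 0.089 to 0.10). The lowest was E102, with -0.99, -0.91 and -0.39 (mean -0.77 ± 0.33, SD, n = 3; adjusted p = 0.0022), which is rank 156 of 169. E091 followed with -0.80, -0.51 and -0.48 (mean -0.59; adjusted p = 0.0029), and 5 of its 31 constructs lay above the promoter's median. E090 had -0.06, -0.76 and -0.85 (mean -0.56; adjusted p = 0.018) over 7 constructs, with replicate 1 near 0 and the others well below, and its mean was 0.17 among constructs with a geometric mean activity of at least 0.02. E103 had -0.76, -0.52 and -0.32 (mean -0.53; adjusted p = 0.0064) over 47 constructs. In these members the spread between constructs was wider than the mean: constructs of E086 ran from -3.17 to 6.30 and those of E103 from -2.59 to 5.06. Without replicate 3, 4 of the 12 were lower by the test, E086 and E090 not among them.

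The same index over second cCREs in place of promoters, chosen after seeing the data, was available for 15 members, and 2 were higher and 11 lower by limma, against 35.5% and 51.6% of 186 cCREs. E084 had an index of 4.02, 3.50 and 3.43 over 20 constructs (mean 3.65 ± 0.32, SD, n = 3), rank 5 of 186, and 18 of the 20 lay above 0. E088 had 0.41, 0.43 and 0.53 (mean 0.46 ± 0.06, SD, n = 3) over 216 constructs. The lowest was E087, with -1.36, -0.91 and -1.09 (mean -1.12 ± 0.23, SD, n = 3). Over the 12 members with both, the index before promoters and that before cCREs had a Pearson r of 0.78 and a Spearman rho of 0.62, with both from the same 3 transfections; over 169 cCREs of the locus these were 0.93 and 0.83.

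E084 could be read before only 1 promoter fragment, P016, and with it both pairs were high. E084-P016+ had an activity of 1.27, 0.91 and 1.21, against 0.0741, 0.102 and 0.0977 for P016+ alone, a log2 difference of 3.63 ± 0.22 (SE; limma adjusted p = 0.00013). E084+P016- had 1.96, 1.84 and 1.20, against 0.0871, 0.107 and 0.112, a log2 difference of 4.00 ± 0.25 (SE; adjusted p = 0.00015). No replicate of a pair came near the promoter alone. E106 and E104 each had 1 promoter pair, neither called by limma: E106+P033- had a log2 difference of 1.47 ± 0.48 (SE; adjusted p = 0.052), and E104-P022+ -0.13 ± 0.21 (SE; adjusted p = 0.63).

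Single pairs reached far above the members' averages. The highest was E086-P033+, with an activity of 3.49, 2.74 and 3.96 against 0.046, 0.0796 and 0.0674 for P033+ alone, which holds the RefSeq start of Marco, a macrophage scavenger receptor gene. Its log2 difference was 5.74 ± 0.27 (SE; limma adjusted p = 6.5e-05), the first of 193 pairs with P033+. Every replicate of the pair exceeded every replicate of the promoter. With P033+ the other orientation of E086 was high as well, 4.27 ± 0.28 (SE; adjusted p = 0.00018), while with P033- the log2 differences were -3.15 ± 1.00 (SE; adjusted p = 0.049) for E086- and -0.92 ± 0.94 (SE; adjusted p = 0.46) for E086+. The promoter's orientation thus separated these 4 constructs, and the cCRE's did not.

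E096+P014+ had an activity of 2.38, 2.22 and 3.08 against 0.0281, 0.0592 and 0.0773 for P014+ alone, a log2 difference of 5.65 ± 0.41 (SE; limma adjusted p = 0.00025). E096-P014+ also rose, by 3.62 ± 0.40 (SE; adjusted p = 0.0012), whereas E096-P014- fell by 2.55 ± 0.67 (SE; adjusted p = 0.028) and E096+P014- had -2.01 ± 0.92 (SE; adjusted p = 0.13). Again the pairs with the promoter in + were high and those with it in - were not. E097+P033+ had an activity of 1.41, 1.26 and 1.45, a log2 difference of 4.45 ± 0.24 (SE; adjusted p = 0.00011), and E097+P033- had 1.45 ± 0.40 (SE; adjusted p = 0.032). E095+P020- had 2.29, 1.85 and 2.25 against 0.141, 0.0931 and 0.0879 for P020- alone, a log2 difference of 4.34 ± 0.24 (SE; adjusted p = 0.00011). In this last case the cCRE's orientation divided the pairs, since E095-P020- fell by 2.10 ± 0.60 (SE; adjusted p = 0.037).

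The lowest called pair was E086+P014-, with an activity of 0.0043, 0.0034 and 0.0073 against 0.1, 0.127 and 0.114 for P014- alone, a log2 difference of -4.57 ± 0.32 (SE; limma adjusted p = 0.00021), the last of 101 pairs with P014-. E086 thus held both the highest and the lowest of the 360 pairs. E092+P020+ had 0.0188, 0.0108 and 0.0026, a log2 difference of -4.42 ± 0.73 (SE, adjusted p = 0.0057), with replicate 3 well below the others. With the median construct as baseline, E086+P014- had -3.08 (limma adjusted p = 0.016) and E092+P020+ had -3.05 (adjusted p = 0.039). Against the promoter alone, all pairs with P014- had a median log2 difference of -1.37, and all pairs with P020+ -1.49. E095+P006+ had 0.0128, 0.0228 and 0.0067, a log2 difference of -4.32 ± 0.46 (SE; adjusted p = 0.001). With the median construct as baseline it was -1.80 (limma adjusted p = 0.068), which was not called. Of all 119 pairs with P006+, 61.3% were lower and 15.1% higher than the promoter alone, with a median log2 difference of -2.28. E086+P014-, E092+P020+ and E095+P006+ each had a geometric mean activity under 0.02, so the setting for low values left them out. With zeros kept and a pseudocount of 0.01, their log2 differences were -3.05, -3.22 and -3.49.

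With P013, the fragment that holds this Gli2 start, most members went with lower output. P013+ alone had an activity of 0.196, 0.210 and 0.218 (log2 mean -2.27 ± 0.08, SD, n = 3), and P013- had 0.0894, 0.112 and 0.143 (log2 mean -3.15 ± 0.34, SD, n = 3). Of 28 member pairs with P013 in either orientation, 3 were higher and 16 lower by limma, with a median log2 difference of -1.38. Over all cCREs of the locus, 28.4% of 222 pairs with P013+ were higher and 35.6% lower, and 24.4% of 201 pairs with P013- were higher and 25.9% lower. Pairs of all cCREs of the locus with P013 were low too, with a median of -0.71 with P013+ and -0.57 with P013-. The lowest member pair to pass the test was E086-P013+, with 0.0106, 0.0285 and 0.0428, a log2 difference of -3.14 ± 0.52 (SE; adjusted p = 0.0056), rank 221 of 222 with P013+. The 3 higher pairs were few enough to name. E095-P013- had 0.833, 1.01 and 0.920, a log2 difference of 3.02 ± 0.22 (SE; adjusted p = 0.00025), rank 15 of 201 with P013-. E092+P013+ had 0.750, 0.677 and 0.834, a difference of 1.85 ± 0.15 (SE; adjusted p = 0.00042), and E088+P013+ had 0.434, 0.316 and 0.353, a difference of 0.81 ± 0.18 (SE; adjusted p = 0.016). In each of these 3, every replicate exceeded every replicate of P013 alone. E095 did not hold this in its other pairs with P013: E095+P013- had -2.39 ± 0.64 (SE; adjusted p = 0.03) and E095-P013+ had -1.04 ± 0.31 (SE; adjusted p = 0.04). Nor did E092+ and E088+ hold it with P013-. E092+P013- was lower, -1.67 ± 0.25 (SE; limma adjusted p = 0.0039), and E088+P013- had -0.77 ± 0.72 (SE; adjusted p = 0.43).

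Promoters of the library were divided at the widest gap in the median log2 activity of their constructs. The weak class held 32 oriented promoters, from -5.09 to 0.03, and the active class 9, from 0.82 to 3.85. Gaps from -0.72 to 0.03 and from 3.13 to 3.85 were nearly as wide, so the division cuts a range rather than separate groups. Of 12 members, the boost index over weak promoters was lower than over active ones in 4 and higher in 0 by limma, against 18.1% and 31.5% of 149 cCREs; at an unadjusted p under 0.05, 6 were lower and 1 higher. E090 had an index of -0.23, -1.15 and -1.30 over 5 weak and 0.34, 0.20 and 0.25 over 2 active promoters, a difference of -1.15 ± 0.21 (SE; limma adjusted p = 0.0099). Among activities of at least 0.02 the difference of E090 was -0.19 (adjusted p = 0.42), and without replicate 3 its adjusted p was 0.057, so that neither was called. E102 had -1.16, -1.09 and -0.49 over 12 constructs with weak promoters and -0.02, 0.11 and 0.15 over 2 with active promoters. The difference was -0.99 ± 0.15 (SE; limma adjusted p = 0.0057). With promoters divided at a log2 activity of -2 it was -0.48 (adjusted p = 0.077) and no longer called. In both members, no replicate of the weak class reached the active class. E092 and E091 had differences of -0.52 ± 0.16 (SE; adjusted p = 0.046) and -0.41 ± 0.13 (SE; adjusted p = 0.049); with promoters divided at -2 they were 0.15 and 0.18, so their direction rests on where the classes are divided. E091 was not called without any 1 of the replicates, nor E092 without replicate 1 or replicate 3. Without replicate 1, 2 of the 12 were lower, and without replicate 3, 1 was.

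In pairs of cCREs, a member in the first place was tested against the second cCRE alone. Of 2963 such pairs, 426 were higher and 789 lower by limma, 14.4% and 26.6%, against 34% and 17.4% of all 39844 pairs, and the median log2 difference was -0.59, against 0.12 over all. Against the first cCRE alone, 1087 of 2974 were higher and 576 lower, where over all 40071 pairs 35.3% were higher and 25.2% lower. Without replicate 2 the counts against the second cCRE were 251 higher and 505 lower, and without replicate 3 they were 266 and 432. Members in the second place were tested against the first cCRE alone, in a comparison chosen after seeing the data. Of 3076 such pairs 545 were higher and 1129 lower, 17.7% and 36.7%, against 35.3% and 25.2% of all 40071 pairs.

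A few members went against this trend. E084 was higher in 18 of 20 pairs in first place and in 14 of 15 in second, with median log2 differences of 3.59 and 4.81. E106 was higher in 8 of 9 pairs in first place, with a median log2 difference of 3.54. E084 and E106 before the same fragment, E066- (activity 0.0622, 0.0919 and 0.0861 alone), gave log2 differences of 5.34 ± 0.26 and 3.54 ± 0.25 (SE). Before the strong E060+, both had a lower value than E060+ alone, -0.60 ± 0.20 for E084+ (SE; limma adjusted p = 0.046) and -0.53 ± 0.18 for E106+ (SE; adjusted p = 0.0497). E088 was higher in 141 of 231 pairs in second place, 61%, against 35.3% of all pairs tested against the first cCRE. In first place it was higher in 69 of 216, 31.9%, near the 34% of all pairs tested against the second cCRE. At the low end, E093 in second place was lower in 52 of 90 pairs and E095 in 126 of 217.

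The highest pair was E097+E200-, with an activity of 11.32, 11.05 and 10.97, against 0.0434, 0.0385 and 0.0367 for E200- alone and 0.0543, 0.0834 and 0.0675 for E097+ alone. Its log2 difference from E200- was 8.14 ± 0.18 (SE; limma adjusted p = 3.2e-05), and every replicate of the pair exceeded every replicate of either part. The other measured orientations did not show it: E097+E200+ had -2.30 ± 1.09 (SE; adjusted p = 0.13) and E097-E200+ had -1.36 ± 0.60 (SE; adjusted p = 0.10). E086+E145- had an activity of 1.05, 1.90 and 2.33, a log2 difference of 6.31 ± 0.83 (SE; adjusted p = 0.0012). E145- alone was 0.0058, 0.0477 and 0.034, so the size of this difference rests on a baseline that itself spread widely.

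E084+E086-, a pair of 2 members, had an activity of 3.99, 2.95 and 2.90, a log2 difference from E086- of 6.22 ± 0.29 (SE; limma adjusted p = 3.4e-05). E084+ alone had 5.23, 4.98 and 4.19, so that against E084+ the log2 difference was -0.56. E096-E095-, another pair of members, had 2.76, 2.09 and 2.37, where E095- alone had 0.0201, 0.0502 and 0.043 and E096- alone 0.0747, 0.119 and 0.0988. Its log2 difference was 6.09 ± 0.38 (SE; adjusted p = 6.5e-05), above both of its parts, while E096-E095+ had 0.04 ± 1.05 (SE; adjusted p = 0.98). The lowest pairs were E086+E077+, with 0.0033, 0.0631 and 0.0028 and a log2 difference of -7.40 ± 1.20 (SE; adjusted p = 0.003), and E086-E097-, with 0.0023, 0.0035 and 0.0099 and -6.86 ± 0.54 (SE; adjusted p = 0.00014). Against E086+ alone, E086+E077+ had a log2 difference of -3.28 (adjusted p = 0.056), which was not called. Replicate 2 of E086+E077+ stood apart from the others, and the 26 pairs with E077+ in second place had a median of -4.64. The 167 pairs with E097- in second place had a median of -2.34. Against E086- alone, E086-E097- had a log2 difference of -3.34 (limma adjusted p = 0.0031). E086+E077+ and E086-E097- each had a geometric mean activity under 0.02, so the setting for low values left them out. Against the second cCRE, with a pseudocount of 0.01, their log2 differences were -5.94 and -5.09.

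Set against the sum of both fragments alone, pairs with a member first had a median log2 activity 1.46 below that sum, pairs with a member second 1.77 below, and all pairs of the locus 1.13 below. The construct eempty had a log2 activity of -2.48 ± 0.13 singly and -4.10 ± 0.30 in both places (SD, n = 3). Whether single and paired constructs share a common level was not tested, so these shortfalls are not read as an effect of one cCRE on the other. Tests of a pair against a promoter or a cCRE alone likewise set a paired construct beside a single one. Their lower calls carry the same limit. The interquartile range with a member first was -2.43 to -0.36, and 18.1% lay above the sum, against 24.5% of all pairs. E106 in first place was an exception, with a median log2 of 0.70 above the sum over 9 pairs, 77.8% of which were above it. E084 had -0.96 over 20 pairs in first place and -0.33 over 15 in second.

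Orientation was also compared in pairs. Before promoters, 6 members had at least 3 oriented promoters with both orientations; 2 were higher in + and 0 in - by limma, against 27.5% and 16.5% of 91 cCREs. E097 had a boost index of 0.03, 0.29 and 0.20 in + and -0.26, -0.41 and -0.83 in -, a difference of 0.67 ± 0.18 (SE; limma adjusted p = 0.036) over 9 promoters. E103 had -0.49, -0.35 and -0.28 in + and -1.27, -0.95 and -0.83 in -, a difference of 0.64 ± 0.12 (SE; adjusted p = 0.015) over 14 promoters, 12 of which were higher with +. In both members the orientations did not overlap. With the median over promoters 0 were called, and likewise without replicate 2 and without replicate 3; at an unadjusted p under 0.05 there were 2, 1 and 1.

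Before second cCREs, 3 of 8 members were higher in + and 2 in -, against 36.8% and 25.6% of 117 cCREs, in a comparison chosen after seeing the data. E086, E088 and E097 were higher in + by 0.73 ± 0.07, 0.40 ± 0.07 and 0.36 ± 0.09 (SE), and E091 and E098 were higher in -, with differences of -0.73 ± 0.08 and -0.81 ± 0.13 (SE; limma adjusted p from 0.0019 to 0.022 over these 5). E103 had 0.08 ± 0.07 (SE; adjusted p = 0.33) here, over 115 second cCREs.

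The sign of an orientation difference varied with the place of the member. E097 was higher in + in first place, by 0.36, and lower in + in second place, by a difference of -1.03 ± 0.05 (SD, n = 3) over 77 first cCREs, as it was alone (-2.89). E086 went from 0.73 in first place to -0.53 ± 0.14 (SD, n = 3) in second, and E088 from 0.40 to -0.58 ± 0.09 (SD, n = 3). In each of these 3 members every replicate of the second-place difference was below 0. Of 7 members with at least 10 shared partners in both places, 6 had opposite signs, 3 of which, E095, E096 and E103, had first-place differences that did not pass the test (0.00, -0.04 and 0.08); over 112 cCREs of the locus 43.8% had opposite signs. The difference between places was not tested. E094, scarce in first place, had -1.40 ± 0.25 (SD, n = 3) in second place over 70 first cCREs, of which 6 were higher with +, beside -4.07 alone.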

How the data were processed

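The deposited values are a ratio: per the file headers and labels, the authors counted barcodes in cDNA and in plasmid DNA and deposited the activity of each construct in each of the 3 replicates. The scaling of this ratio and the counts behind it are not given in the sources used here, so depth per construct is unknown and no counting interval is given. The genome build mm10 and Bowtie2 come from the submitters' processing notes, which give no version. Another 3 columns of per-sample values, of the other library mix, were not used.

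Activities were taken as log2; constructs with a 0 in any replicate were left out. Each test was fitted with limma 3.58.1 (R 4.3.3) on the whole Tfcp2l1 table, with Benjamini-Hochberg adjustment over it at 0.05, and only rows of the members are reported. A boost index used oriented promoters with at least 10 constructs, a minimum set after seeing the data. Pair tests compared 3 values with 3; both arms come from the same transfections, so the replicate number pairs them by design (correlation of deviations 0.22, 0.21 and 0.09 for promoter pairs, 0.14, 0.11 and 0.06 for cCRE pairs). Items given in full are the highest and lowest by each measure: 4 and 4 members by boost index, 3 and 2 by mean activity alone over orientations, 4 and 3 promoter pairs, 4 and 2 cCRE pairs, and members called by orientation or promoter class; the pairs of E084, E104, E106 and P013 were added after their values were seen. The members and lists were chosen with earlier results of these data known.

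The tests were run on simulated data with known changes. A first simulation gave each arm of a pair its own spread over the replicates. The 2 pair tests then made more false calls than the nominal share, and more than the looser limit set for the simulation. A second, written after that, gave both arms the equal spread that limma assumes, and false calls were then near the nominal share. The counts of called pairs may therefore hold more false calls than 0.05 implies where the arms differ in spread. In the first simulation the fit with the replicate as a block kept false calls of promoter pairs near the nominal share, and for cCRE pairs it made no calls. Alternatives covered the pseudocount (0.01), low values (0.02), baselines, centring, medians, the block and each replicate left out.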

Additional observations from a re-analysis of the deposited data

Results flagged for a closer look

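Differences within a member were singled out where a test compared its effects directly. Between the orientations of E097 the boost index differed by 0.67, and between those of E103 by 0.64 (limma). Between weak and active promoters the boost index differed by -1.15 for E090, -0.99 for E102, -0.52 for E092 and -0.41 for E091 (limma). E090 and E102 rest on 2 active oriented promoters each. E090 was -0.19 (adjusted p = 0.42) among activities of at least 0.02, and E102 was -0.48 (adjusted p = 0.077), E092 0.15 and E091 0.18 with promoters divided at -2. Neither orientation difference was called with the median over promoters.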

How the results depend on the processing

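Values over 3 replicates of 1 plasmid pool limit every result, the depth behind each ratio is unknown, and many members had few constructs. With the median construct as baseline, 73 member promoter pairs were lower. Of the 35 oriented members alone, 11 were higher and 24 lower with the mean cCRE alone as baseline. Against eempty, 9 were higher and 24 lower. Centred on the median cCRE 1 member had a higher boost index, and over second cCREs 2 did. Against the first cCRE alone 1087 cCRE pairs were higher. For orientation, 1 member was higher among activities of at least 0.02, 0 with the median over promoters, and over second cCREs 2 were lower. For weak against active promoters, dividing at -2 gave 2 higher and 2 lower, and activities of at least 0.02 gave 7 lower.

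Leaving out 1 replicate at a time gave 20 to 36 higher and 42 to 98 lower promoter pairs, 4 to 7 members with a lower and 0 with a higher boost index, 251 to 407 higher and 432 to 698 lower cCRE pairs, 11 higher and 14 to 16 lower oriented members alone, 0 to 3 members higher and 0 lower in + for orientation, and 1 to 4 members lower and 0 higher for weak promoters. With the replicate block, promoter pairs were 31 higher and 105 lower, and cCRE pairs 409 and 807, counts within 1.5 times of those without it.

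The boost index of E097 changed sign, to 0.0156 when centred, 0.0209 with the median over promoters and 0.0728 without replicate 3 (-0.128 without replicate 2), and that of E090 was 0.17 among activities of at least 0.02. E084+E086- was -0.56 against E084+ alone. With promoters divided at -2, E092 was 0.15 and E091 0.18. The cause was not tested. Second cCREs as partners, members in second place, leaving out E084 or promoters of wide alone value, no construct minimum, the eempty baseline and the division at -2 were chosen after seeing the data.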
